A study of Gallus gallus with 60 samples.

Results

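Cytosolic ribosomal proteins build the ribosome that translates nuclear messenger RNAs, with the RPL and RPLP proteins in the large subunit and the RPS proteins in the small subunit. Their probe sets were chosen by the gene symbol in the annotation of the chicken array, which had to be a single symbol made of RPL or RPS and a number (with at most a letter A, L, X or Y behind it, and a further number), RPLP0 to RPLP2, or RPSA. The choice used no measured value. It gave 139 probe sets of 66 genes, out of 38535 probe sets analysed and 13009 genes with a probe set of a single symbol. The large subunit was covered by 92 probe sets of 43 genes and the small subunit by 47 probe sets of 23 genes. All 139 gene identifiers carried the same symbol in RefSeq. For 32 genes a single probe set was available, 34 genes had 2 or more, and RPL24 and RPS25 had 7 each.

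The 60 hens were 65 to 67 weeks old, and RNA from the posterior part of the cerebrum of each was put on an array of its own. The hens belonged to the layer lines Lohmann Selected Leghorn (LSL, a white layer, 28 hens) and Lohmann Brown (LB, 32 hens), and all of them lived in a small group housing system, in compartments of 54 or 36 hens. This gave 15 LSL hens in groups of 54, 13 LSL hens in groups of 36, 17 LB hens in groups of 54 and 15 LB hens in groups of 36. Lines were not mixed in a compartment, several hens came from each compartment, and hens were picked with regard to how stressed they appeared, a state that the labels do not give. The sample came from the left side in 6 hens and from the right side in 54.

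The deposited log2 values had been centred so that hens 1 to 30, and separately hens 31 to 60, had a median of 0 at each probe set (largest deviation 7.02e-07 and 5e-07). A value therefore says how far a hen lay from the middle hen of its own set of 30 arrays, and neither the level of a gene nor the presence of the tissue's marker genes can be read from it. Unless a set is named, the tests below used both sets of arrays with the set as a block. No coordinates are given since no genome build belongs to the files. Probe sets whose name ends in a_at, s_at or x_at can bind several transcripts or related genes, and ribosomal protein genes have many processed copies in vertebrate genomes. Of the 139 probe sets, 68 had such a name.

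In the cell a ribosome carries each of these proteins in a fixed number, and vertebrate ribosomal protein messenger RNAs begin with a terminal oligopyrimidine tract through which mTOR signalling controls their translation together. In neurons they are also found in axons and dendrites, where proteins are made locally. Several members of the chosen set carry symbols that in humans belong to paralogs of a main ribosomal protein (RPL3L, RPL22L1, RPL26L1, RPL39L, RPS27L, RPS4Y1), and RPL7L1 is known from ribosome assembly.

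Most ribosomal protein probe sets differed little between the lines, and a few differed strongly. In LSL compared with LB, 10 of the 139 probe sets were higher and 21 were lower at an adjusted p under 0.05 (limma, Benjamini-Hochberg over all 38535 probe sets), that is 7.19% and 15.1%, where all probe sets gave 8.13% higher and 10.2% lower. In either direction the share was 22.3%, against 18.4% of all probe sets and 20.8% of the 96 probe sets of 67 mitochondrial ribosomal protein genes. The median difference was -0.02 log2 over the ribosomal proteins and -0.01 over all probe sets. The probe sets that did not pass lay between -0.10 and 0.14. The 31 that passed belonged to 22 genes, and 20 of them differed by under 0.25 log2, 6 by 0.25 to 0.5 and 5 by 0.5 or more. In both subunits about the same share passed, 7 higher and 14 lower of 92 in the large and 3 higher and 7 lower of 47 in the small subunit.

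**Figure D1:**
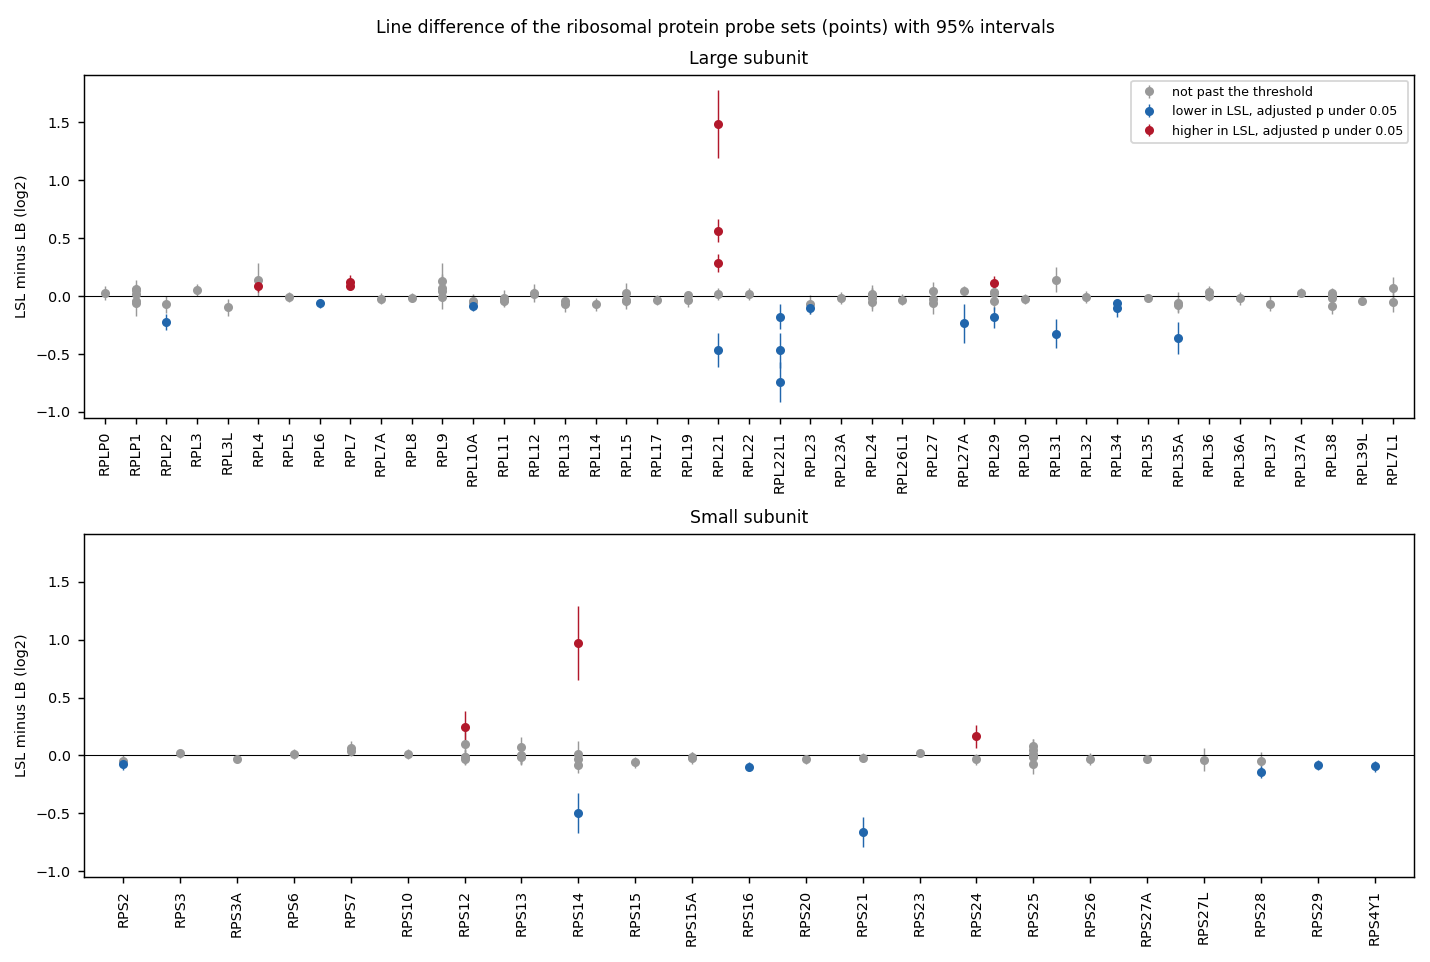
Difference between LSL and LB hens (vertical axis, log2, with 95% intervals) for the 139 ribosomal protein probe sets, arranged by gene on the horizontal axis, with the large subunit above and the small subunit below. Red points passed the test as higher in LSL, blue points as lower in LSL, and gray points did not pass; RPL21 and RPS14 have points far above and far below 0.

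RPL21, a protein of the large subunit, had the largest difference, and its 5 probe sets did not move together. It is also listed in the supplement of the study, which was based on these hens, so its difference is no independent evidence. At Gga.16875.1.S1_at the lowest, median and highest values of LSL hens were -0.04, 0.34 and 0.88 among hens 1 to 30, against -1.91, -1.27 and 0.56 in LB hens. Among hens 31 to 60 the values were -0.01, 0.18 and 1.22 in LSL hens and -1.71, -1.31 and 0.49 in LB hens. Most LB hens lay far below every LSL hen, but 2 of 15 LB hens in the first set and 3 of 17 in the second lay within the range of the LSL hens. Between these and the other LB hens was a gap from -0.76 to 0.40 in the first set and from -0.52 to 0.09 in the second. The line difference was 1.48 log2 (SE 0.15, 95% interval 1.19 to 1.78, 2.80-fold, adjusted p = 3.1e-12 from limma), and it was the only one of the 31 that reached 2-fold.

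The second RPL21 probe set, Gga.13575.1.S1_at, was less variable within the groups. LSL hens of the first set had -0.06, 0.23 and 0.46 (lowest, median, highest), against -0.66, -0.36 and 0.05 in LB hens. In the second set LSL hens had 0.10, 0.32 and 0.53, against -0.70, -0.27 and 0.04 in LB hens. The lines overlapped among hens 1 to 30, where 3 of 15 LB hens were inside the LSL range, and did not overlap among hens 31 to 60. It was the only one of the 139 (0.719%) without overlap in the second set, where this was so for 0.548% of all probe sets; among the 139 none was free of overlap in the first set (0.205% of all) or in both (0.135% of all). The difference was 0.57 log2 (SE 0.05, adjusted p = 1.6e-14 from limma). The 5 LB hens that lay inside the LSL range at Gga.16875.1.S1_at (hens 25, 26, 41, 46 and 59) were among the 6 highest of the LB hens at Gga.13575.1.S1_at, with values of -0.02 to 0.05. Over all hens, after removing the group and set means, these probe sets had a correlation of 0.57.

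Of the other 3 RPL21 probe sets, Gga.20007.1.S1_at was higher in LSL by 0.29 log2 (SE 0.04, adjusted p = 2.5e-08) and Gga.4572.1.S1_a_at did not pass (0.02, SE 0.03). Gga.12613.1.S1_at was lower in LSL by -0.47 log2 (SE 0.07, adjusted p = 1.4e-06). At Gga.12613.1.S1_at LSL hens of the first set had -1.09, -0.39 and 0.28, against -0.16, 0.27 and 1.04 in LB hens, and those of the second set -0.59, -0.14 and 0.17, against -0.21, 0.16 and 0.50 in LB hens. Here the lines overlapped widely, with 8 of 15 and 9 of 17 LB hens inside the LSL range. Gga.12613.1.S1_at correlated with the other 4 at between -0.18 and 0.30 within groups. Probe sets of a single gene symbol were thus higher in LSL, lower in LSL, or did not pass, and which transcript each of them binds was not tested.

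**Figure D2:**
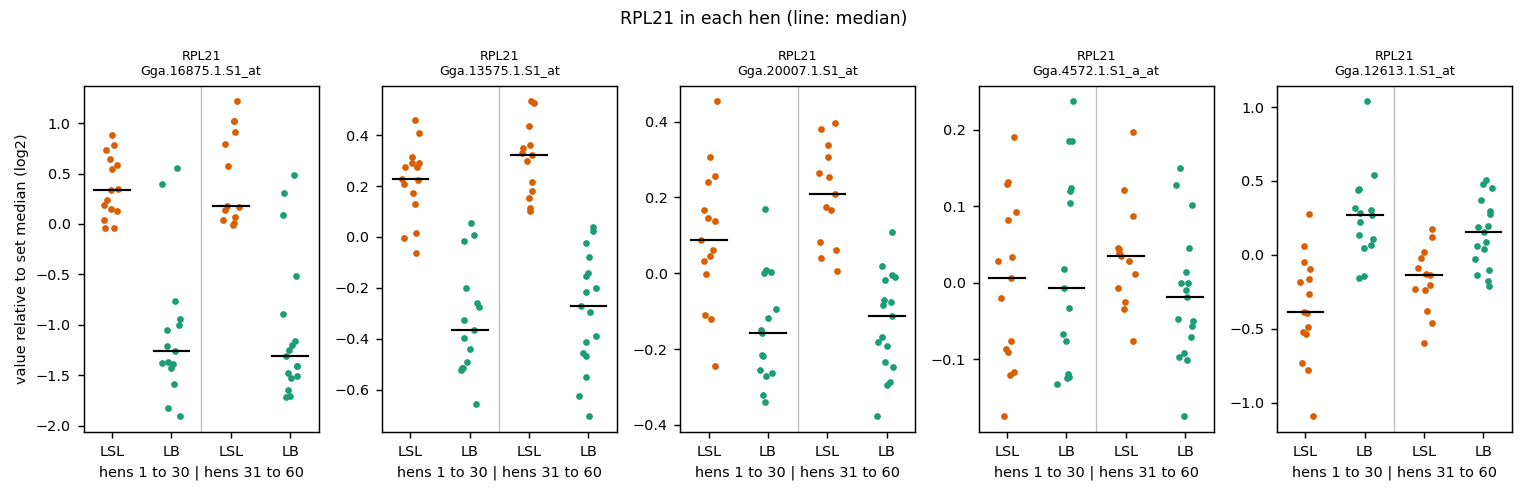
Values of the 5 RPL21 probe sets in each hen (vertical axes, log2 relative to the median of the hen's set of arrays, on a separate scale in each panel), LSL in orange and LB in green, with hens 1 to 30 left and hens 31 to 60 right in each panel. Black lines are medians; in the first panel 2 and 3 LB hens sit at the height of the LSL hens while the others lie near -1.3.

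RPS14, a small subunit protein of the platform that human patients with the 5q- syndrome have in a single copy, was the other gene with large differences in both directions. At GgaAffx.13119.1.S1_s_at LSL hens of the first set had -0.09, 0.15 and 0.82, against -1.80, -0.80 and 0.27 in LB hens. In the second set the medians were alike, with -0.10, 0.00 and 0.55 in LSL hens and -1.72, -0.00 and 0.19 in LB hens. The difference was 0.97 log2 (SE 0.16, adjusted p = 2.9e-06). Only a part of the LB hens stood apart: 12 of 15 and 8 of 17 lay below every LSL hen, and in the second set 7 of these were at -1.48 or below, with the next hen at -0.66. At Gga.4512.2.S1_at LSL was lower by -0.50 log2 (SE 0.09, adjusted p = 1.1e-05), with -0.91, -0.29 and 0.54 in LSL hens of the first set, against -0.06, 0.18 and 1.42 in LB hens, and -0.49, -0.11 and 0.39 in LSL hens of the second, against -0.21, 0.06 and 0.92 in LB hens. The remaining probe sets of RPS14 did not pass, at 0.02, -0.03 and -0.09 log2. Within groups the correlation between GgaAffx.13119.1.S1_s_at and Gga.4512.2.S1_at was -0.07.

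RPL22L1 was lower in LSL at all 3 of its probe sets. It is a paralog of RPL22 and can take the place of RPL22 in mouse ribosomes. At Gga.10117.2.S1_a_at LSL hens of the first set had -0.42, -0.22 and 0.06, against -0.42, 0.75 and 1.09 in LB hens, and in the second set LSL hens had -0.47, -0.27 and 0.03, against -0.61, 0.59 and 1.03 in LB hens. While 12 of 15 and 14 of 17 LB hens lay above every LSL hen, 1 LB hen in each set lay below them all. The difference was -0.74 log2 (SE 0.09, 1.67-fold lower, adjusted p = 8.1e-10). Gga.1090.2.S1_at differed by -0.47 log2 (SE 0.08, adjusted p = 2.0e-06) and Gga.1090.1.S1_s_at by -0.18 log2 (SE 0.06, adjusted p = 0.016). The last of these no longer passed without LB hens 7, 8 and 16, which are described below (-0.12 log2). It was also lost in hens 1 to 30 alone and in groups of 36 alone. Within groups Gga.10117.2.S1_a_at correlated at -0.09 with Gga.1090.1.S1_s_at and at -0.09 with Gga.1090.2.S1_at. The correlation between Gga.1090.1.S1_s_at and Gga.1090.2.S1_at was 0.40. RPL22 itself, with a single probe set, differed by 0.02 log2 and did not pass.

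RPS21, another small subunit protein, was lower in LSL at Gga.5481.2.S1_at. LSL hens of the first set had -0.76, -0.24 and 0.00, against -0.00, 0.29 and 0.80 in LB hens, and LSL hens of the second set had -0.62, -0.40 and 0.06, against -0.21, 0.41 and 0.83 in LB hens. In the first set 14 of 15 LB hens were above every LSL hen, and in the second set 11 of 17. The difference was -0.66 log2 (SE 0.06, 1.58-fold lower, adjusted p = 2.3e-12), while Gga.5481.1.S1_a_at, the other RPS21 probe set, gave -0.02 log2 (SE 0.02) and did not pass. The correlation of the 2 RPS21 probe sets within groups was 0.02.

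**Figure D3:**
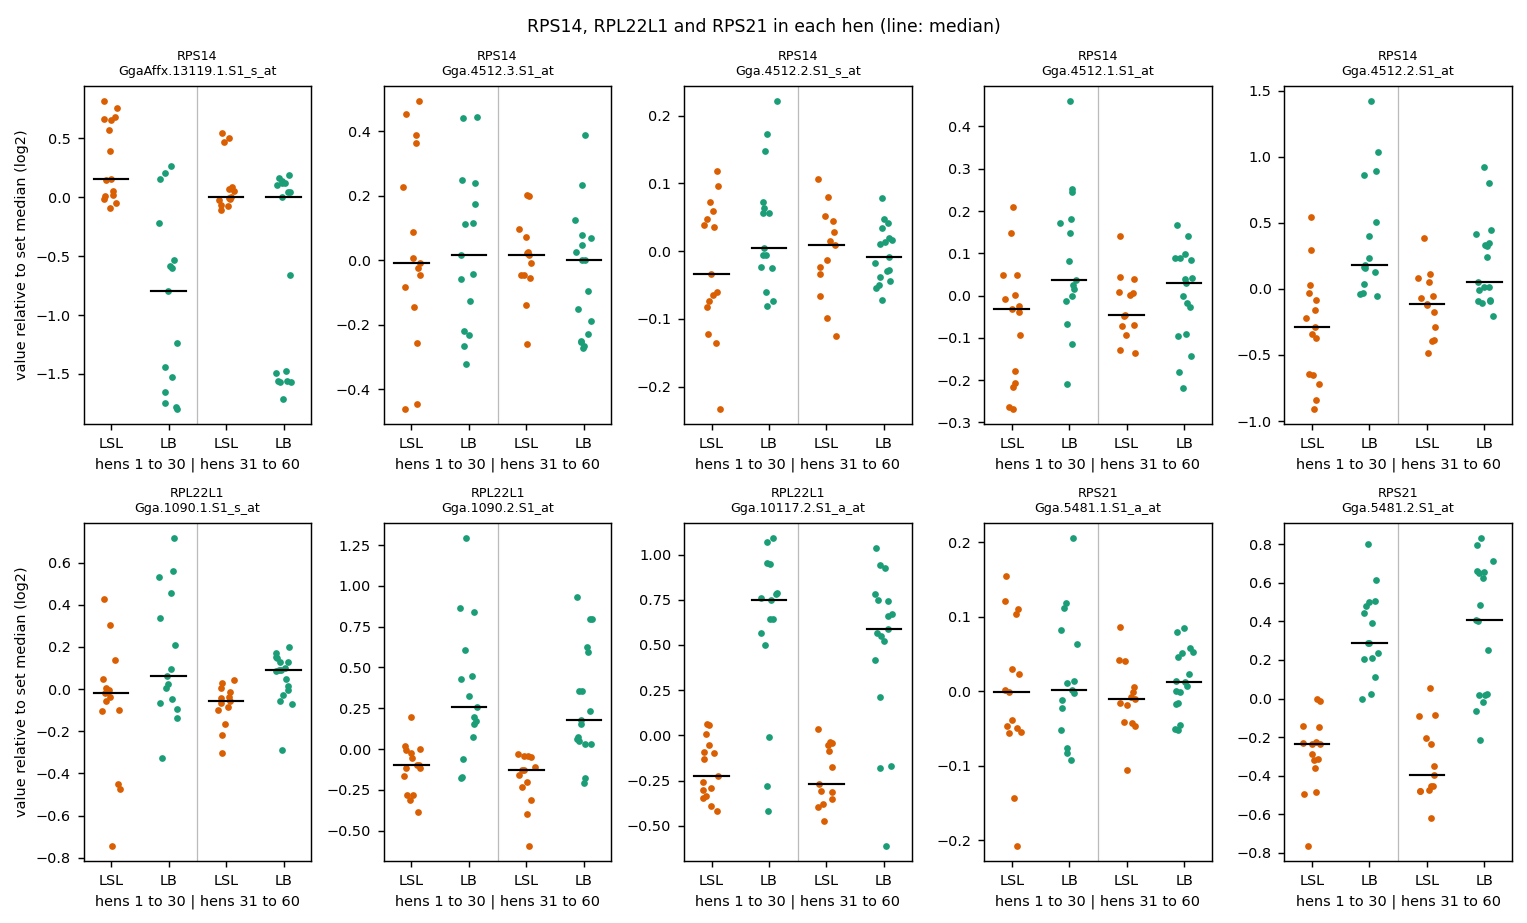
Values of the probe sets of RPS14 (5), RPL22L1 (3) and RPS21 (2) in each hen, drawn as for RPL21, with LSL in orange left of LB in green in each set of arrays and log2 scales that differ between panels. The first RPS14 panel shows LB hens spread between about -1.8 and 0.3 while LSL hens stay within -0.1 and 0.8.

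The other differences were smaller. Among proteins of the large subunit, RPL35A, known from Diamond-Blackfan anemia in humans, was lower in LSL by -0.36 log2 (SE 0.07, adjusted p = 5.4e-05) at Gga.4459.4.S1_a_at, where LSL hens had medians of -0.16 and -0.10 in the first and second set, against 0.08 and 0.04 in LB hens. The ranges overlapped, and its other probe sets gave -0.08 and -0.06 log2 and did not pass. RPL31, at the rim of the exit tunnel, was lower by -0.33 log2 (SE 0.06, adjusted p = 6.5e-05) at Gga.10283.1.S1_at, with medians of -0.28 and -0.11 in LSL hens against 0.25 and 0.07 in LB hens, and gave 0.14 log2 at Gga.4657.1.S1_at (adjusted p = 0.062).

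RPLP2, an acidic protein of the stalk that binds elongation factors, was lower by -0.22 log2 (SE 0.04, adjusted p = 2.3e-06) at Gga.9470.2.S1_at, with medians of -0.11 and -0.12 in LSL hens against 0.22 and 0.06 in LB hens. Its second probe set gave -0.07 log2 and did not pass, and the stalk base RPLP0 gave 0.03 log2. RPL29 was called in both directions, -0.18 log2 (SE 0.05) at Gga.1799.1.S2_at and 0.12 log2 (SE 0.03) at Gga.1799.2.S1_at, with 3 probe sets at -0.04, 0.03 and 0.04 that did not pass. The higher RPL29 call was lost in each set of arrays alone and in groups of 36 alone. The lower RPL29 call was lost in hens 1 to 30 alone and in groups of 36 alone. RPL27A passed at Gga.7953.1.S1_at with -0.23 log2 (SE 0.09, adjusted p = 0.044), which was -0.43 log2 in the second set of arrays and -0.05 in the first, and did not pass under 9 of 16 alternative settings. Leaving out LB hens 7, 8 and 16 was among these, and Gga.9087.2.S1_a_at gave 0.04 log2. In the second set 6 of 17 LB hens lay above a gap from 0.24 to 0.61 at Gga.7953.1.S1_at.

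RPL7 and RPL34 were the other genes for which all of several probe sets passed in one direction. RPL7 was higher in LSL by 0.12 and 0.09 log2 (SE 0.03 and 0.02), and RPL34 lower by -0.11 and -0.06 log2 (SE 0.04 and 0.02). RPL4, part of which lines the exit tunnel, was higher by 0.09 log2 at GgaAffx.12906.1.S1_s_at (SE 0.03, adjusted p = 0.019) and had 0.14 log2 at GgaAffx.20130.1.S1_s_at, which did not pass. LB hens 8 and 16 had -1.59 and -1.47 there, while the other 58 hens had -0.33 or more. The RPL4 call was lost in each set of arrays alone and in groups of 36 alone. The RPL7 calls were lost in hens 1 to 30 alone and in groups of 36 alone.

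In the small subunit, RPS12 was higher by 0.25 log2 (SE 0.07, adjusted p = 0.0056) at 1 of 5 probe sets, with medians of 0.09 and 0.11 in LSL hens against -0.12 and -0.10 in LB hens. Its other probe sets lay between -0.03 and 0.10. The RPS12 call was lost in each set of arrays alone and in each group size alone. RPS24 was higher by 0.16 log2 (SE 0.05, adjusted p = 0.012) at GgaAffx.21286.1.S1_s_at and gave -0.04 log2 at the other. That call was lost in hens 1 to 30 alone, in right sides alone and in groups of 36 alone, and over all alternatives the difference lay between 0.05 and 0.28 log2. RPS28, which lies near the exit of the messenger RNA, was lower by -0.15 log2 (SE 0.03, adjusted p = 9.2e-06) at Gga.4500.1.S1_at and gave -0.05 log2 at Gga.4500.1.S2_at. The calls left, in RPL6, RPL10A, RPL23, RPS2, RPS4Y1, RPS16 and RPS29, were all lower in LSL, by -0.10 to -0.06 log2. Of these, the RPL10A call was lost in each set of arrays alone and in groups of 36 alone. For the others, and for RPL34, the alternative settings are not given here. Genes with several probe sets and the smallest differences were RPS15A (-0.02 and -0.01 log2), RPL12 (0.02 and 0.02) and RPL36 (0.03 and 0.00). The 7 probe sets of RPS25 lay between -0.07 and 0.08 log2 and the 5 of RPL38 between -0.08 and 0.03, and none of them passed.

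Of the 34 genes with 2 or more probe sets, 15 had a probe set that passed beside one that did not. Genes with a single probe set passed at 4 of 32, all lower in LSL, and genes with several at 27 of 107 probe sets. When the probe sets of each gene were averaged and all genes were tested that way, RPL21 (0.38 log2) and RPL7 (0.11 log2) were higher in LSL, and 15 of the 66 genes were lower, led by RPL22L1 (-0.46 log2) and RPS21 (-0.34 log2). The shares over all genes in that test are not given here, so these counts cannot be set against a background.

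All 31 called probe sets had the same sign among hens 1 to 30 and among hens 31 to 60. Tested alone, the first set gave 16 ribosomal protein calls (11.5%, against 9.11% of all probe sets) and the second set 26 (18.7%, against 13.1%), and 14 of the 31 passed in both. A test of the difference between the sets gave no call among the 139 and 0.00519% among all probe sets (at an unadjusted p under 0.05 there were 7 of the 139, 5.04%, against 8.27% of all). Across probe sets, which are not independent, the line differences of the sets correlated at 0.90 over the 139 and at 0.74 over all. In compartments of 54 hens the line difference passed at 28 (20.1%, all 15.5%), and in compartments of 36 hens at 14 (10.1%, all 9.07%). The test of the difference between group sizes gave no call among the 139 or among all probe sets (0%), with 6 of the 139 at an unadjusted p under 0.05 (4.32%, all 12.9%). Its lowest p values were found for RPS25 (0.25 log2, LSL minus LB in groups of 54 over that in groups of 36, adjusted p = 0.29), RPL38 (-0.16, adjusted p = 0.30) and RPS14 (0.26, adjusted p = 0.32).

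**Figure D4:**
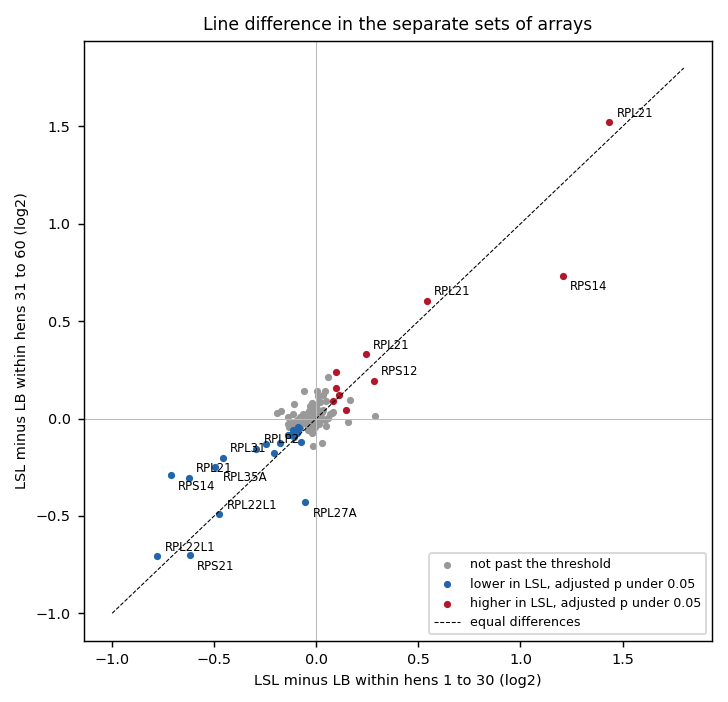
Line difference (LSL minus LB, log2) of each of the 139 ribosomal protein probe sets within hens 1 to 30 (horizontal axis) and within hens 31 to 60 (vertical axis), coloured by the call over all hens, with gene names at the larger differences and a dashed line of equal differences. All 31 coloured points lie in the quadrants of equal sign, which a call made over both sets favours.

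No ribosomal protein probe set passed for group size (54 minus 36, limma). Over all probe sets 0.0156% passed, and within LSL and within LB 0.00519% each, with no ribosomal protein among them. At an unadjusted p under 0.05 there were 31 of the 139 (22.3%), all higher in groups of 54, against 10.5% of all probe sets. Within LSL there were 5 (3.60%, all 12.1%), and within LB, the line of hens 7, 8 and 16, there were 35 (25.2%, all 11.8%). The lowest p belonged to RPS14 at Gga.4512.2.S1_at (0.32 log2, SE 0.09, adjusted p = 0.19), RPLP0 (0.10 log2, SE 0.03, adjusted p = 0.21) and RPL10A at Gga.4632.1.S1_s_at (0.08 log2, SE 0.02, adjusted p = 0.22). At the RPS14 probe set, hens in groups of 54 had medians of 0.17 and 0.05 in the first and second set, against -0.04 and -0.05 in groups of 36.

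The direction was shared by most of the genes but not by both sets of arrays. Over the 139 probe sets the median of the 54 minus 36 difference was 0.03 log2 and 80.6% lay above 0, where over all probe sets the median was -0.00 and 46.8% lay above 0. Mitochondrial ribosomal proteins had a median of 0.04 with 81.2% above 0. Among hens 1 to 30 the median was 0.07 with 85.6% above 0, and among hens 31 to 60 it was -0.01 with 38.8% above 0. Without LB hens 7, 8 and 16, which belonged to groups of 54, the median was 0.02 with 79.1% above 0. Many of the ribosomal protein probe sets rise and fall together in a hen, so that these shares count few independent values.

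This common movement was seen within the groups. After removing group and set means, the mean correlation over all pairs of the 139 probe sets was 0.20, compared with 0.18 for mitochondrial ribosomal proteins and 0.01 for all probe sets. It was 0.16 in LSL hens and 0.23 in LB hens, and 0.22 and 0.17 in the first and second set of arrays. Without LB hens 7, 8 and 16, which stand apart in the actin difference described below, it was 0.16, and with that difference as a covariate 0.14. The correlation of a probe set with the mean of the other ribosomal proteins had a median of 0.53. It was above 0.5 for 75 of the 139 and below 0 for 19. The highest were RPS15A (0.88, Gga.1026.2.S1_at), RPL17 (0.88) and RPL26L1 (0.87). RPL4 ran against the others (-0.59 and -0.45) with all hens included. At both of its probe sets 2 LB hens of the first set lay below a gap, from -1.47 to -0.32 and from -0.46 to -0.21. At the wider gap these were hens 8 and 16, which also had the highest means over the ribosomal proteins. The RPL4 correlations were not repeated without them. The probe sets with line differences of 0.25 log2 or more followed the rest less, with a median of 0.20 over 11, than the smaller calls, with 0.54 over 20. For the leading RPL21, RPS14, RPL22L1 and RPS21 probe sets (Gga.16875.1.S1_at, GgaAffx.13119.1.S1_s_at, Gga.10117.2.S1_a_at and Gga.5481.2.S1_at) it was 0.11, -0.10, 0.04 and -0.13. For probe sets of the same gene the median correlation over 154 pairs was 0.14, and 20 pairs were above 0.5. This is a median, while the 0.20 over all pairs is a mean, so the values are not compared.

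The mean over the 139 probe sets ranged from -0.09 to 0.07 in LSL hens and from -0.10 to 0.16 in LB hens. The highest were LB hens 16, 8 and 7, with 0.16, 0.15 and 0.10, all in groups of 54 and among hens 1 to 30, while the other 57 hens had up to 0.08. In these hens the centred value of the 5′ probe set of actin lay far below that of its 3′ probe set. The difference was -2.89, -2.88 and -1.69 log2, against -1.33 to 0.24 in the other 57. It compares a hen with the middle hens of its set and does not give the 5′ to 3′ signal difference itself. The 5′ to 3′ difference is used on this array as a sign of RNA quality. The same difference for GAPDH was -0.59 and -0.55 in hens 16 and 8, but 0.03 in hen 7, within the -0.17 to 0.15 of the other 57. Hen 7 thus stood apart at actin only. Over all 60 hens the mean of the ribosomal proteins correlated with the actin difference at -0.69 (rank correlation -0.42). It was -0.77 in hens 1 to 30, 0.24 in hens 31 to 60 and -0.36 without the 3 hens, given as a description. With the GAPDH difference the correlation was -0.58 over all hens (rank correlation -0.29).

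A slope on the actin difference passed in either direction for 84 of the 139 probe sets (60.4%, against 28.4% of all), and for 79 of them it was negative (56.8%, against 15.4% of all). The shares of mitochondrial ribosomal proteins were 66.7% in either direction and 56.2% negative. Among hens 1 to 30 a negative slope passed for 36 (25.9%, all 8.90%) and for 47 of the 96 mitochondrial ribosomal protein probe sets, and among hens 31 to 60 for none of these and none of all probe sets (0%). Without LB hens 7, 8 and 16 a slope passed for 15 (10.8%, all 12.1%), and for 14 of them it was negative (10.1%, all 6.04%). Without these hens 16 probe sets were higher and 17 lower in LSL, and with the actin difference as a covariate 15 and 20. The median line difference was then -0.00 log2 in both cases, and -0.01 over all probe sets. Differences above 0 made up 48.2% of the 139 without these hens and 37.4% with all hens. For mitochondrial ribosomal proteins the shares were 53.1% and 40.6%, and for all probe sets 45.3% and 44.5%. The share of all probe sets that passed in these fits is not given here. The part of RNA quality in the smaller differences was not tested beyond these values. Without the 3 hens the differences of the 139 ranged from -0.74 to 1.47 log2, compared with -0.74 to 1.48 over all hens.

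**Figure D5:**
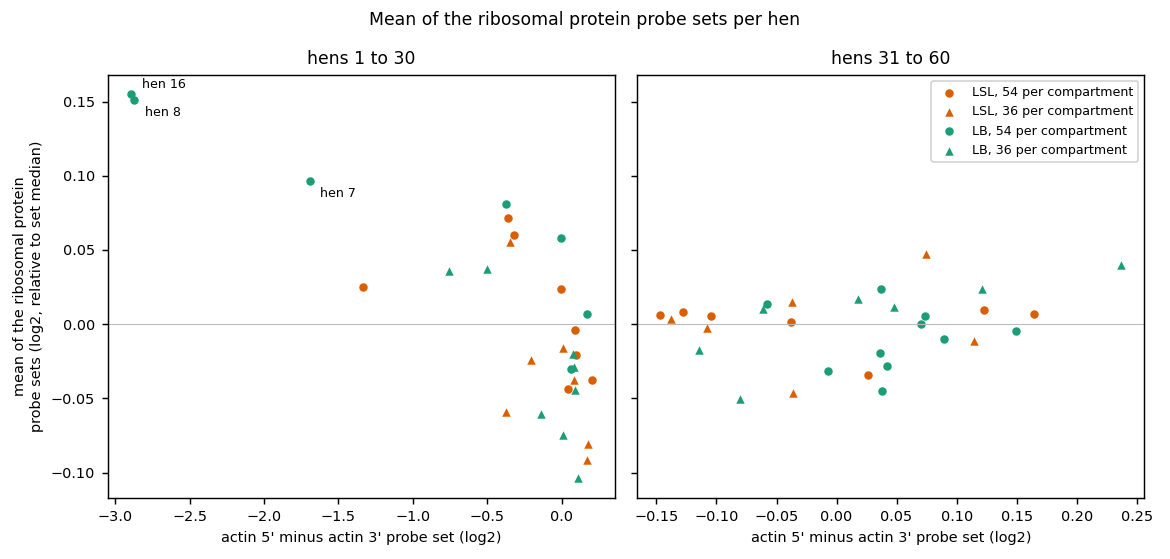
Mean of the 139 ribosomal protein probe sets in each hen (vertical axis, log2 relative to the set median) against the actin 5′ minus 3′ difference of the centred values (horizontal axis, log2, on a different scale in each panel). Hens 1 to 30 are on the left and hens 31 to 60 on the right, coloured by line and shaped by group size. LB hens 7, 8 and 16 stand at the upper left, between -2.89 and -1.69 on the actin axis.

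Genes that work with the ribosomal proteins were described by lists. From 11.1% to 21.9% of the probe sets in these lists passed between the lines, where 18.4% of all probe sets did. Only the list of ribosomal RNA synthesis and processing genes, with 21.9%, lay above that share. Of ribosome partners outside the symbol pattern, 2 of 24 probe sets were higher in LSL, RACK1 (0.13 log2), a scaffold on the small subunit, and SEC61A1 (0.10), the channel into the endoplasmic reticulum, and 1 was lower, BTF3 (-0.09). Of other messenger RNAs that carry the oligopyrimidine tract in mammals, 5 of 47 were higher and 3 lower, with SLC25A6 (0.16), RACK1 and the elongation factor subunits EEF1G (-0.26) and EEF1D (-0.11) among them. The median of this list was 0.04 log2. At their other probe sets SEC61A1 (0.01 and -0.02), BTF3 (0.06), EEF1G (0.03) and EEF1D (-0.04) did not pass.

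Of genes that control translation of ribosomal protein messenger RNAs, 4 of 45 probe sets were higher and 1 lower. These included MYCN (0.23 log2) and MYC (-0.20), transcription factors that drive ribosome production, and RPTOR (0.19), the scaffold of the mTOR complex. The other probe sets of MYCN (0.05) and RPTOR (-0.03 to 0.06) did not pass. Of ribosomal RNA synthesis and processing genes, 9 of 64 were higher and 5 lower. A single GNL3 probe set (0.54), of a nucleolar GTPase, and RPF2 (0.44), an assembly factor, were the highest. The other GNL3 probe sets gave -0.01 each and did not pass. WDR12 passed in both directions (0.28 and 0.26 at 2 probe sets, and -0.49 at GgaAffx.21435.1.S1_x_at). None of the lists had a call for group size.

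In the lists of cell type markers between 0% and 23.8% of the probe sets passed between the lines, where 18.4% of all probe sets did. Neuron markers had 2 higher and 3 lower of 21 probe sets. The higher ones were of NEFM (0.23 log2) and ENO2 (0.09), and the lower ones all of SYT1 (-1.03, -0.98 and -0.80 log2), a calcium sensor of synaptic vesicles. Oligodendrocyte markers had 2 higher of 12 (CLDN11 0.71, MBP 0.18), astrocyte markers 1 higher and 1 lower of 10 (GLUL 0.08, SPARCL1 -0.99), and markers of blood cells 2 higher of 11 (JCHAIN 1.48, SLC4A1 0.16). Vessel markers had 2 higher and 2 lower of 25 (CLDN5 0.26 and 0.17, PECAM1 -0.22 and -0.38), and markers of meninges and fibroblasts 1 of each of 24 (DCN 0.35, IGF2 -0.10). NEFM, CLDN11, MBP, GLUL and IGF2 passed at a single probe set each, and their other probe sets did not pass. A further PECAM1 probe set did not pass. None of 18 microglia and 11 choroid plexus probe sets passed. The mean of the blood cell list lay between -0.46 and 1.15 in LSL hens and between -0.67 and 0.44 in LB hens, and after removing group and set means it correlated with the mean of the ribosomal proteins at 0.37. The list means of neurons (-0.51) and astrocytes (-0.46) ran against the ribosomal proteins, as did those of the other messenger RNAs with an oligopyrimidine tract (-0.54) and of the translation control genes (-0.44). The remaining lists lay between -0.33 and 0.13. All these correlations included the LB hens that stand apart in the actin difference and were not repeated without them. A slope on the actin difference passed as positive for 18 and negative for 3 of 47 oligopyrimidine tract probe sets. The counts were 6 and 1 of 21 for neurons, 4 and 0 of 10 for astrocytes, and 13 and 9 of 45 for translation control. For the ribosomal proteins 79 of 139 were negative. Over all probe sets a slope passed for 28.4% in either direction and was negative for 15.4%. The part of RNA quality in these correlations was not tested. The part of cell composition in the ribosomal protein differences was not tested, and fewer cells of a type cannot be told apart from less RNA per cell in such samples.

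All left samples were among hens 31 to 60 (2 LSL and 4 LB hens). Left minus right gave no call among the 139 or over all probe sets (0%), with 10 of the 139 at an unadjusted p under 0.05 (7.19%, all 7.80%) and a median of 0.00 log2. The lowest p was that of RPS25 (0.20 log2, adjusted p = 0.45).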

How the data were processed

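Posterior cerebrum RNA of 60 hens had been hybridised to Affymetrix chicken arrays, 1 per hen. The authors made the deposited log2 values with RMA (background correction, quantile normalization) and centred them to the median; the centring is separate for hens 1 to 30 and hens 31 to 60. Centred values hold no level and no signal over background, so no filter on low values was applied. The number of arrays and the spread between hens limit the precision. Probe sets were named by the platform annotation.

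All 38535 probe sets were fitted with limma 3.58.1 in R 4.3.3 (lmFit, eBayes) on the 4 groups of line and group size plus array set. P-values were adjusted by Benjamini-Hochberg across the whole array and called below 0.05, and intervals are 95%. The fit was tested on simulated data. Named are all RPL21 probe sets, all 10 higher calls, the 12 largest lower calls, genes called both ways and the 3 lowest p for group size and interaction. The other probe sets of these genes, the 3 genes with the smallest differences and up to 4 called genes per list were also named. RPL17, RPL22, RPL26L1, RPL34 and the genes of small calls given as a range were named after their values were seen. Members and lists were chosen with earlier results of these data known. The labels name no compartments, and hens were treated as independent. Alternatives covered the sets alone, robust and weighted fits, quantile or median rescaling of the arrays, side, RNA quality, single group sizes, the methods' t-test, Welch's test, gene means and probe set suffixes.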

Additional observations from a re-analysis of the deposited data

How the results depend on the processing

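With the actin covariate the counts of 10 higher and 21 lower ribosomal protein probe sets in LSL stayed within 1.5 times, with the higher calls at that limit. The counts also stayed within 1.5 times in the pooled fit, in hens 31 to 60 alone, with robust or weighted fits and with both rescalings. In addition, the counts stayed within that limit for side, groups of 54 alone, the methods' t-test and Welch's test. They were 4 and 12 in hens 1 to 30 alone, 4 and 10 in groups of 36 alone (both with fewer hens), 6 and 13 without probe sets of suffix a, s or x (71 tested), 2 and 15 with 1 value per gene (66 tested), and 1 and 0 at 2-fold or more. Without LB hens 7, 8 and 16 they were 16 and 17, and the cause was not tested. Shares over all probe sets were given above for the line difference in each set of arrays and each group size. For the other alternatives, the fit without these hens among them, such shares are not given here. Those counts cannot be set against a background. Group size and the line by group size term gave 0 calls under every alternative tried for them. Of 23 named probe sets that passed, 13 passed under each of 16 alternatives, and no call changed its direction. Calls were lost in 34 cases, 9 of them for RPL27A. The share of calls higher in LSL over all probe sets was 44.3%, and 50.5% after quantile normalization. No paired analysis was possible because every hen has a number of its own that recurs in no other group. Hens of the same compartment may resemble each other, which would make the p-values too small; compartments are not in the labels and could not be fitted.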
